A study of Mus musculus with 40 samples.

Results

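Genomic regions with reporter-positive fragments at both early stages of mouse blood cell development, and with none listed at a later one, numbered 832 of 75060. A region was a run of overlapping DNA fragments drawn from all 40 libraries, with at least 1 bp shared between neighbours. The 832 were chosen by measured values: each had at least 1 reporter-positive fragment at the embryonic stem cell (ES) stage and at the hemangioblast (HB) stage with replicates pooled, and none at the later stages HE1, HE2 and HP. Among the 8602 regions positive at ES and at HB, the other 7770 were also positive later. Their early presence and late absence are therefore how they were picked and not a result.

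The cells were HM-1 mouse embryonic stem cells of the 129/ola strain, and every library came from this 1 line. Open-chromatin fragments cut by Tn5 from all 5 stages were cloned before an Hsp68 minimal promoter driving Venus-YFP, the plasmid libraries were mixed, and each cell took up 1 fragment at its Hprt locus. The cells were differentiated and sorted as ES cells, FLK1+ HB cells, hemogenic endothelium (KIT+ TIE2+; CD41- for HE1, CD41+ for HE2) and hematopoietic progenitors HP (KIT+ TIE2- CD41+). Each stage was divided by YFP level into Negative, Low, Medium and High gates in 2 replicates, and the Negative gate was set with a reporter line that carried no enhancer. A stage of 1 replicate is called a sort. The labels do not say whether the replicates were separate cultures, so the tests below measure the spread between these libraries.

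The hemangioblast is a FLK1-expressing mesodermal cell that gives rise to endothelium and blood, and it arises from pluripotent cells as the OCT4, SOX2 and KLF4 circuit gives way to Wnt, BMP and T-box programmes. Enhancers are distal DNA elements whose activity depends on the transcription factors present. Elements that work only at these stages act before the blood programme of RUNX1, PU.1 and GATA1 is established. The libraries are lists of different fragments without read counts, so a fragment counts once per library and depth is the number of fragments, from 1763 to 16343 in the 16 ES and HB libraries and from 654 to 51146 in all. Intervals below are Wilson 95% intervals and cover counting error only, since PCR molecules were not tagged.

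Sequences of 8 members are shown first, from the GRCm38 reference (mm10), plus strand, with at most 300 bases of each. Where a region was longer, the window was the one that its positive fragments covered most. In the regions nearest 9530068E07Rik and Hand1 it was the most covered window that held CACACCC on either strand. The first pair had the most positive fragments, the third led the members positive in all 4 ES and HB sorts, and the remaining 5 were named members that hold CACACCC, the KLF motif whose share differs below. Capitals mark matches to any of the 14 motifs examined, on either strand. The regions lie at chr13:43531179-43531849 (intergenic, nearest start site Mcur1), chr7:27308860-27309365 (intron, Ltbp4), chr17:84003834-84004094 (intron, 8430430B14Rik), chr4:17092179-17092401 (intergenic, Gm30092), chr11:52389874-52390312 (intergenic, 9530068E07Rik), chr4:99670333-99670521 (intergenic, Foxd3), chr1:13103802-13104081 (intergenic, Prdm14) and chr11:57913059-57913717 (intergenic, Hand1). The printed windows of the 4 regions over 300 bp are chr13:43531296-43531595, chr7:27309066-27309365, chr11:52389874-52390173 and chr11:57913317-57913616. In them the KLF letters appear as CACACCC or, on the minus strand, as GGGTGTG.
Mcur1: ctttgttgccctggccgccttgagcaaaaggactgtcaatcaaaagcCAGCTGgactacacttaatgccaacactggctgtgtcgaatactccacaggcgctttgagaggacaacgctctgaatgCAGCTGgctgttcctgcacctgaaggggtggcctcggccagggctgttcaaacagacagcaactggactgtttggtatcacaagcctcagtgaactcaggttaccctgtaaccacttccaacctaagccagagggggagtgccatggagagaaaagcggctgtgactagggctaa
Ltbp4: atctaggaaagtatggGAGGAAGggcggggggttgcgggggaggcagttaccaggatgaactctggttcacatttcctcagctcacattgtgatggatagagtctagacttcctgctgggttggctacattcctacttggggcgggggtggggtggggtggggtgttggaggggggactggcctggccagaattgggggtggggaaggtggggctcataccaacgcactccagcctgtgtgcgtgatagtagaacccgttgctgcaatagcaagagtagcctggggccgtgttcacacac
8430430B14Rik: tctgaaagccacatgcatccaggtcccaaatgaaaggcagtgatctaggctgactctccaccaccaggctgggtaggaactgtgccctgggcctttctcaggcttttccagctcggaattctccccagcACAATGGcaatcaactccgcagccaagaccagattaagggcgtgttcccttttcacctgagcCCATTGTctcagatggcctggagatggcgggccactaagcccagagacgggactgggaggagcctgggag
Gm30092: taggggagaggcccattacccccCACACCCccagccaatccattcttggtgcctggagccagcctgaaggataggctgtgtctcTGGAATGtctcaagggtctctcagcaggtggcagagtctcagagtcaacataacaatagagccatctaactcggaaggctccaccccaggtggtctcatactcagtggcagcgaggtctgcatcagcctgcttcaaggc
9530068E07Rik: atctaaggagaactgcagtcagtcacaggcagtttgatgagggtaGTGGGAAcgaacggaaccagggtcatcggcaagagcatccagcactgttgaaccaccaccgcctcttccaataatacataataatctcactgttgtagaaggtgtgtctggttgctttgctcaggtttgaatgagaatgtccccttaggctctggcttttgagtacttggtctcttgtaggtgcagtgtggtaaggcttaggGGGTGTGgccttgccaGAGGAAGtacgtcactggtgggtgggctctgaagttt
Foxd3: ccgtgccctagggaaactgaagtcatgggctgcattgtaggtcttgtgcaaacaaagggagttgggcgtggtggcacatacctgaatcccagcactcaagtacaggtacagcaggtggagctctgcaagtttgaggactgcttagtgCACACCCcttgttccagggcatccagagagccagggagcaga
Prdm14: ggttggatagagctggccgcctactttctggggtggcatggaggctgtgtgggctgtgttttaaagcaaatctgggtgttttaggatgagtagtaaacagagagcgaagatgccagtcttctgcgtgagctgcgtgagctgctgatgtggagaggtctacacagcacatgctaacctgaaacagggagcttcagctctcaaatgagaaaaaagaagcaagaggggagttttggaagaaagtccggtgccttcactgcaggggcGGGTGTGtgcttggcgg
Hand1: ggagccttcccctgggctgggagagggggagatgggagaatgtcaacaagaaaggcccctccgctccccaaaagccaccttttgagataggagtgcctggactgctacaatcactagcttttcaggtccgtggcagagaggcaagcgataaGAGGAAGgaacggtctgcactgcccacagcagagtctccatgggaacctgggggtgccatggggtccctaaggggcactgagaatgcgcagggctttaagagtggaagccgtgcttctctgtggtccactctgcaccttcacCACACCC

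Most members rested on few fragments from 1 replicate. Both stages were positive in replicate 1 alone for 511 members and in replicate 2 alone for 200, while 44 combined ES of replicate 1 with HB of replicate 2 and 27 the reverse. Fragments of 3 sorts were present in 44 members and of all 4 in 6. In all, 121 members (14.5%) were positive in both replicates, against 8.14% of the 63070 regions positive at any stage, most of which had fewer stages in which to be seen. There were 196 members with 1 different positive fragment, 273 with 2 and 363 with 3 or more, and 415 had exactly 1 at ES and 1 at HB. When fragments with both ends within 5 bp were joined, 226 members were left with 1. Just outside the limit, 451 regions had the same early pattern plus 1 positive fragment later (286 at HE1, 80 at HE2 and 85 at HP) and 484 had 2. Summed over the 2 early stages, with a fragment seen at both counted at each, the median number of fragments was 3 in members. It was 2 in the regions with 1 later fragment and 5 in those with 3 or more later.

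The 10 members with most positive fragments, counting a fragment once in each library that held it, had 9 to 12 such listings. The region nearest Mcur1, which encodes a regulator of mitochondrial calcium uptake, had 7 different fragments at ES and 5 at HB, all in replicate 1. That nearest Ltbp4, a latent TGF-beta binding protein of the extracellular matrix, had 2 fragments at ES in replicate 1, 6 at ES in replicate 2 and 1 at HB in replicate 2. Its 8 different fragments came down to 3 when ends within 5 bp were joined, and the 4 of the member in an intron of Auts2 (chr5:132534246-132534593) came down to 1. The others lay nearest 1700027J07Rik, Rai1, Prss8 (a membrane serine protease), Ssbp3 (a cofactor of LIM-homeodomain factors), Ndst2 (a heparan sulfate sulfotransferase), Gm36283 and Prkcz (an atypical protein kinase C), and 4 of these 7 (Rai1, Ssbp3, Ndst2 and Prkcz) were positive in replicate 1 alone. The members thus ranged from tilings of many overlapping fragments to repeated recovery of nearly the same fragment.

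**Figure D1:**
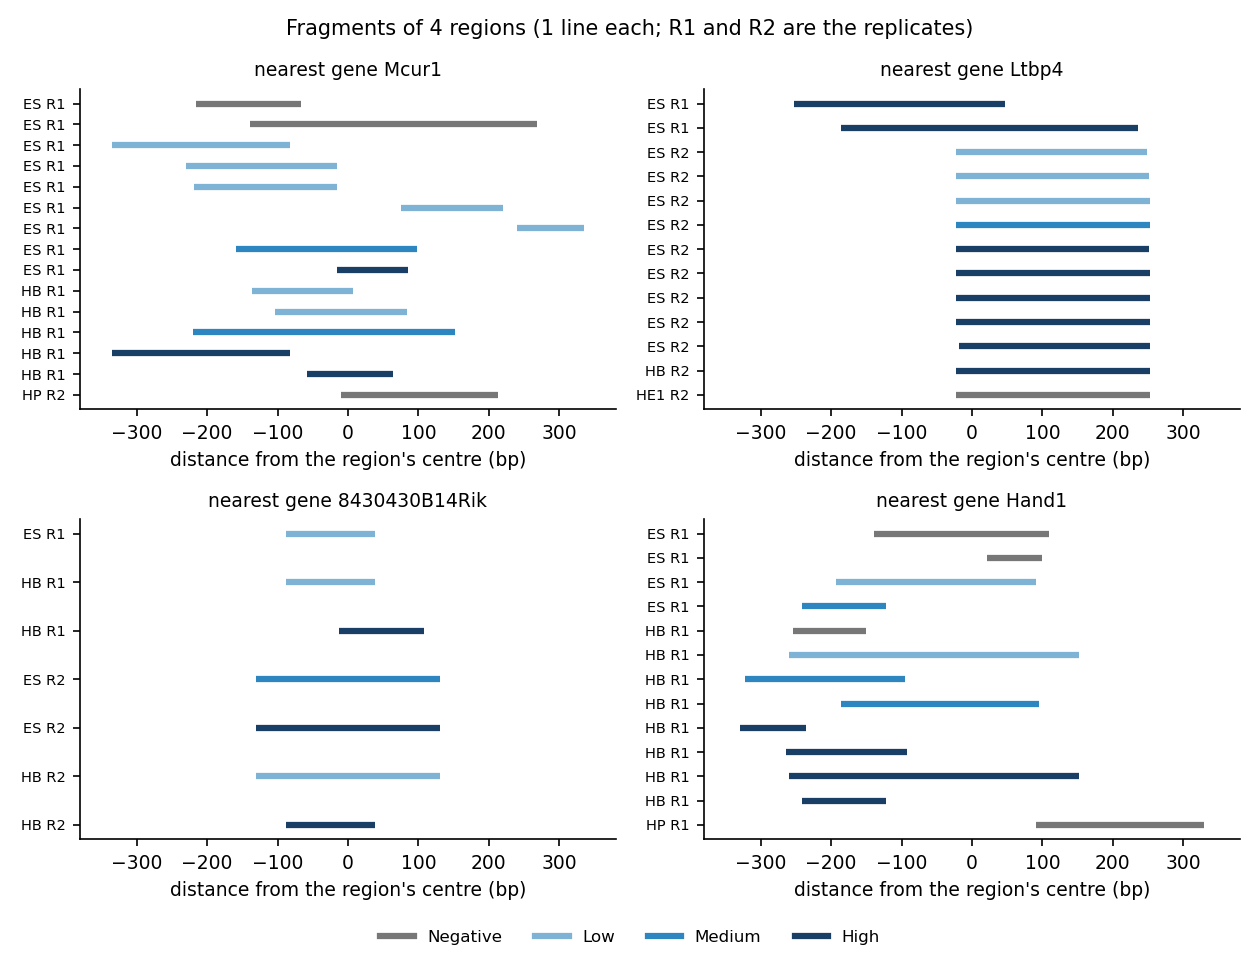
Fragments in 4 members, 1 line per fragment and library, coloured by gate, against distance from the centre of the region in bp; row labels give stage and replicate. Mcur1 and Hand1 are tiled by different fragments of replicate 1, whereas the Ltbp4 fragments of replicate 2 share nearly the same ends and include 1 Negative fragment at HE1.

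The 6 members positive at ES and HB in both replicates were small in number of fragments. The region in an intron of 8430430B14Rik had 1 fragment at ES in each replicate and 2 at HB in each, with a fragment of identical ends in both replicates. That in an exon near Vsig10l (chr7:43475834-43476077) had 1 at ES in each replicate, 4 at HB in replicate 1 and 1 in replicate 2. Those nearest Gm30092, Dusp7 (an ERK phosphatase; chr9:106351133-106351461), 9530068E07Rik and Mrps27 (a mitochondrial ribosome protein; chr13:99356824-99357317) had exactly 1 fragment in each of the 4 sorts. The Dusp7 region was the sole member of the 6 with all its fragments in the High gate, 2 at each stage. Negative fragments were seen in 3 of the 6, 1 each at HB for Vsig10l and Mrps27 and 1 at HE2 for Gm30092.

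Few members lay near genes of known early or later programmes, and the nearest start site does not show which gene an element serves. Among genes of the pluripotency list, 5 of 832 members (0.601%) had one as the nearest start site, Lefty1, Foxd3, Prdm14 and Nodal among them, against 0.333% of all positive regions. The region of Lefty1, a Nodal antagonist (chr1:180919652-180919955), had 2 fragments at ES and 1 at HB, all in replicate 1. Those of Prdm14, a repressor that maintains naive pluripotency, and of Nodal had 1 and 1 in replicate 1. The Foxd3 region had 1 at ES in replicate 1 and 2 at HB in replicate 2. The early signalling list held 6 members (0.721%, background 0.349%), nearest Id1 (a BMP target), Sp5 and Axin2 (Wnt targets), Tcf7, Tcf7l1 and Fgf5. Of these the Id1 region (chr2:152742197-152742759) had 4 fragments at ES and 2 at HB, and the Axin2 region (chr11:108909519-108910130) 2 and 1. The Tcf7 region (chr11:52314563-52314846), near a factor that partners beta-catenin, had 1 and 3.

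The mesoderm and hemangioblast list held 1 member (0.12%, background 0.3%), which lay 81.2 kb upstream of Hand1, a factor of lateral and extraembryonic mesoderm. It had 2 fragments at ES and 6 at HB, all in replicate 1, of which 4 HB listings were in the High gate. The blood list held 5 (0.601%, background 0.32%), nearest Zfpm1, Laptm5, Gfi1b, Irf8 and Csf1r. The Zfpm1 region (chr8:122269371-122269806), 12.6 kb upstream of this GATA1 cofactor, had 3 fragments at ES and 6 at HB in replicate 1, with 4 Negative fragments at ES and 1 at HB. The Gfi1b region (chr2:28612501-28612952), in an intron 9.26 kb from the start of this repressor of blood development, had 1 and 3. The endothelial list held 2 members (0.24%, background 0.29%), nearest Efnb2 and Cdh5, which lay 194.4 and 181.1 kb away. The neural list, included as genes of another lineage, held 3 (0.361%, background 0.338%), nearest Ntm, Dlgap2 and Grin1. Counts of 1 to 6 per list leave these shares imprecise, and no list was tested. Of the 794 genes nearest to a member, 760 had 1 and only Dhx35, Ltbp4, Lyrm9 and Rnf220 had 3.

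By position the members were distal elements, as were the lists from which they came. The centre lay in an intron for 345 (41.5%), between genes for 395 (47.5%) and in an exon for 92 (11.1%). Of all positive regions placed on chromosomes, 46.0% were intronic, 48.8% intergenic and 5.14% exonic, and of the regions also positive later 7.94% were exonic. Within 1500 bp of a start site there were 5 members (0.601%), near the 0.566% of all positive regions, and 1.57% of the regions also positive later. The median distance was 17902 bp, against 24320 bp over all positive regions, and the median width was 286 bp against 309 and, for regions also positive later, 580.

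Within the early sorts, members took up a small part of each library. In replicate 1 the share of fragments in members at ES was 3.24% in Low, 3.56% in Medium and 3.37% in High, and at HB it was 1.96%, 2.35% and 3.46%. In replicate 2 it was 5.56%, 2.92% and 3.61% at ES, and 2.04%, 3.31% and 2.21% at HB. The High gate was above the Low gate in 3 of the 4 sorts and below it at ES of replicate 2, where the Low library was the smallest with 1763 fragments. High averaged 3.16 ± 0.644% and Low 3.20 ± 1.68% (SD, n = 4). The difference was -0.0349 points (exact sign-flip permutation test, two-sided, p = 1, n = 4 sorts, where no p below 2 of the 16 arrangements is possible). It was 0.818 points without replicate 2, 0.132 with Medium in place of Low and 0.183 with fragments of a single gate, so its sign was not settled. High-gate fragments were present at ES in 419 members, at HB in 499 and at both in 248, and 94 members had High fragments only. Low-gate fragments were present at ES in 329 and at HB in 218. These counts also depend on library size, for example 16343 fragments in High and 7468 in Low at HB of replicate 1. Their shares over all positive regions were not computed, so they are not read as a trait of members.

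**Figure D2:**
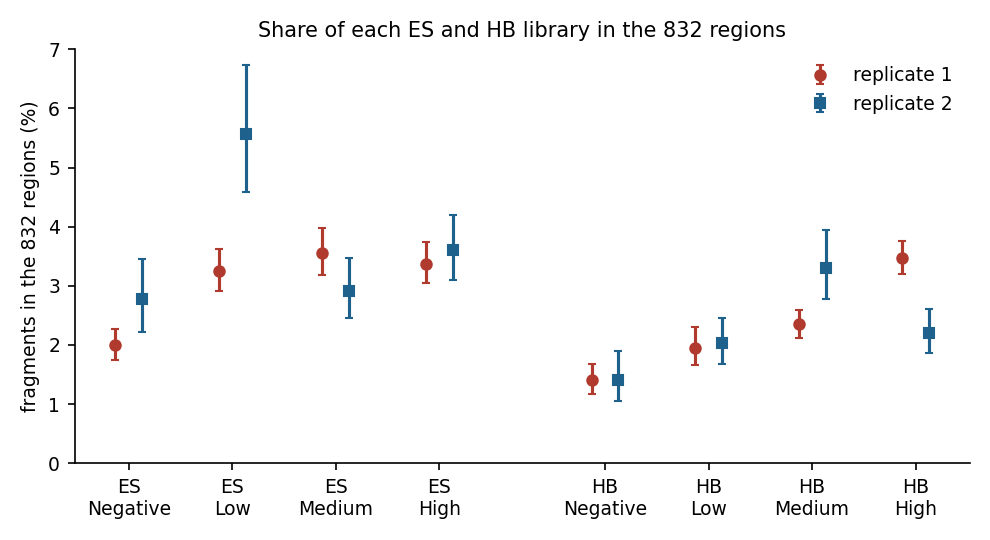
Share of each ES and HB library (%) that lay in the 832 regions, by stage and gate; circles are replicate 1, squares replicate 2 and bars Wilson 95% intervals. The Low library of ES in replicate 2 stands highest at 5.56%, and in the other 3 sorts High lies above Low.

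The replicates differed in how ES and HB came to share a region. A fragment with identical ends was present at both stages in 312 members (37.5%), against 41.9% of all regions positive at both. Within replicate 1 this held for 108 of the 554 members positive at both stages there (19.5%), and within replicate 2 for 191 of 213 (89.7%). Regions also positive later gave 21.1% and 94.2%, with the same contrast between the replicates. Across replicates, 14 of 82 members had an identical fragment at ES of replicate 1 and HB of replicate 2, and 8 of 45 the other way round. Of the 109 identical fragments of replicate 1, 51 (46.8%) were in a common gate at ES and HB, and of the 198 of replicate 2, 126 (63.6%). In replicate 2, membership thus rested mostly on 1 fragment seen at both stages.

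The Negative gates did not decide which stages of a region counted as positive, and they were compared next. The rule still bears on them, since a later Negative fragment that was also positive in its sort cannot lie in a member. Such fragments were 71.3%, 9.28% and 0% of the Negative fragments at HE1, HE2 and HP in replicate 1. In replicate 2 they were 55.8%, 47.3% and 6.67%. At ES and HB they were 6.74% and 8.30% in replicate 1 and 28.6% and 38.3% in replicate 2. The rule thus lowers the later shares, and the test below does not account for it. Its p-value cannot tell a difference between stages from the rule, and no conclusion is drawn from it. The Negative libraries also helped to set the region borders, and with borders from positive libraries alone there were 826 members. In replicate 1, 1.99% of the Negative fragments at ES and 1.40% at HB lay in members, then 0.00967% at HE1 (4 of 41374), 0.0237% at HE2 (2 of 8430) and 0.130% at HP. In replicate 2 the shares were 2.77% at ES and 1.41% at HB, then 0.902%, 0.697% and 0.308% from HE1 to HP. All 4 early libraries lay above all 6 later ones. The means were 1.89 ± 0.648% (SD, n = 4) and 0.345 ± 0.373% (n = 6), a difference of 1.55 points (exact permutation test over the 10 libraries, two-sided, p = 0.00476, 210 arrangements). By region, 300 members (36.1%) had a Negative fragment at ES or HB, against 16.2% of all positive regions, and 71 (8.53%) had one at HE1, HE2 or HP, against 31.2%. These backgrounds are unlike the members by the rule, since 17351 of the 63070 positive regions were positive at ES and 39786 at HE1. The 2 contrasts are therefore not read as a trait of members. In 761 members (91.5%) no fragment of any gate was listed at the later stages. Most members were thus not seen as silent later but were not seen at all, and the lists cannot tell loss of activity from loss of the fragment there.

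Several measurements belong beside this difference. Of the 445 early Negative listings in members 36.0% had the same ends as a positive fragment, and of the 107 later ones 47.7%. Without Negative fragments found in any positive library the difference was 1.02 points (exact permutation p = 0.00952). When the 150 members with a fragment in both a Negative and a positive library were left out, in an alternative chosen after seeing the data, it was 0.547 points (exact permutation p = 0.0762) and no longer passed 0.05. In that setting the replicate 1 shares were 1.35% at ES and 0.997% at HB against 0.00725% to 0.106% later, while those of replicate 2 were 0.0355% and 0.0327% against 0% to 0.174%, without the early excess. Each replicate alone gave 1.64 and 1.45 points, with p = 0.1 as the smallest that an exact permutation of 5 sorts allows. Of the 9 other pairs of stages, regions positive at exactly that pair had a higher mean Negative share at their own stages in 8, for example 6.13% against 1.42% for HE1 and HE2, and 0.507% against 0.511% for HB and HP. The methods of the study describe keeping fragments in chromatin open at the matching stage. If that was applied to these lists, it acted on Negative and positive libraries alike, and its part in the difference was not tested.

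**Figure D3:**
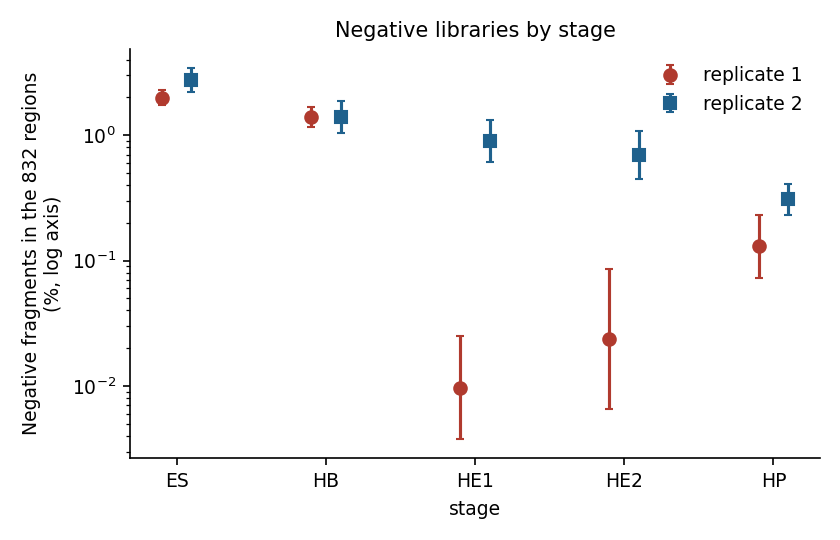
Percentage of Negative-gate fragments in the 832 regions by stage on a log axis; circles are replicate 1, squares replicate 2 and bars Wilson 95% intervals. All ES and HB points lie between 1.40% and 2.77%, above every later point, and the drop is steeper in replicate 1.

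The rule was then applied to 1 replicate and the regions were measured in the other, which had no part in the choice. Replicate 1 alone gave 667 such regions, which held 0.634% of the positive fragments of replicate 2 at ES and 0.669% at HB, then 0.555%, 0.732% and 0.390% at the later stages in order. Replicate 2 alone gave 289, which held 0.720%, 0.923%, 0.868%, 0.816% and 0.802% in replicate 1. Early and later stages overlapped in both directions. The early mean was 0.736 ± 0.129% (SD, n = 4) and the later 0.694 ± 0.184% (n = 6), a difference of 0.0426 points (exact permutation test within replicates, two-sided, p = 0.6, 100 arrangements). It was -0.00703 points when measured in replicate 1 and 0.0921 in replicate 2. Regions early-only in 1 replicate were thus not detectably more frequent at ES and HB than later in the other. Of the 667, 49 were positive at ES of replicate 2 (10568 positive fragments), 63 at HB (14657) and 96 at HE1 (36021).

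**Figure D4:**
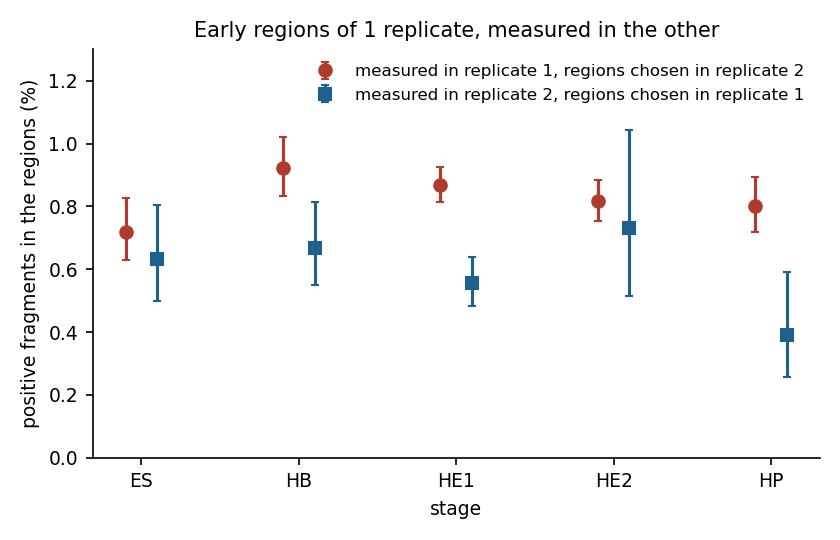
Share of positive fragments (%) that lay in regions chosen as ES-and-HB-only in the other replicate, by stage; circles are measured in replicate 1, squares in replicate 2, bars are Wilson 95% intervals. ES and HB do not stand above HE1, HE2 and HP in either replicate.

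Sequence was not used by the rule, and 6 of 14 motifs passed the threshold of 0.05 between member and other fragments over 12 libraries. These libraries share fragments and are not independent, and over the 4 sorts, where none can pass, 0 did. KLF letters were more frequent, and GATA and PU.1 letters less frequent, in members of all 12 libraries tested. Shares are per fragment, and member fragments had a shorter median in 10 of these libraries, so they offer fewer places for a match. Member fragments were compared with the other positive fragments of the same library in the 12 Low, Medium and High libraries of ES and HB, over fragments more than 1500 bp from a start site. The 14 motifs were searched on both strands. Those of pluripotent cells were TGCAAAT for the OCT factors, ACAATGG for the SOX family, CACACCC for the KLF family and AAGGTCA for ESRRB. Those of signalling and mesoderm were ATCAAAG for the TCF effectors of Wnt, GGTGTGA for T-box factors (TBOX), TGANTCA for AP-1, TGGAATG for the TEAD partners of YAP and GTGGGAA for RBPJ of the Notch pathway. Those of blood and endothelium were AGATAAG for the GATA factors, CAGCTG for bHLH factors (EBOX), TGTGGTT for RUNX proteins and GAGGAAG for PU.1, and a longer consensus was searched for CTCF. KLF and TBOX overlap, since the reverse strand of the first can share GGTGTG with the second. A match is a string of letters and shows no binding.

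The KLF letters, bound by the KLF family that includes the pluripotency factor KLF4, were more frequent in members. They occurred in 6.21% to 12.2% (median 8.91%) of member fragments per library and in 5.15% to 7.26% (median 6.30%) of the others, higher in 12 of 12. The mean difference was 2.90 ± 1.54 points (SD, n = 12; exact sign-flip permutation test, two-sided, Benjamini-Hochberg adjusted p over the 14 motifs 0.00228). By sort, members and others held them in 8.29% and 6.50% at ES and 8.07% and 6.13% at HB of replicate 1, and in 8.60% and 6.58% at ES and 9.32% and 5.21% at HB of replicate 2. The 4 sorts therefore went the same way, though an exact permutation of 4 pairs cannot go below 2 of 16 arrangements. The ES and HB sorts are also not independent, since in replicate 2 the same 198 fragments made up 70.7% of the ES and 63.5% of the HB member fragments. Of the 832 regions 116 (13.9%) held a match, against 9.32% of all positive regions. A high share was not particular to members: among different fragments of regions positive at exactly 1 pair of stages it was 8.05% and 8.67% for ES and HB (replicates 1 and 2), 7.49% and 9.17% for ES and HE1, 8.80% and 9.66% for ES and HE2, and 7.84% and 11.1% for ES and HP. Pairs of HB with a later stage ran from 3.94% to 6.92% in replicate 1 and from 6.21% to 7.69% in replicate 2.

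GATA letters, bound by the GATA factors of mesoderm and blood, were less frequent. They occurred in at most 2.04% of member fragments per library (median 1.48%) and in 2.06% to 4.94% (median 3.56%) of the others, lower in 12 of 12 (mean difference -2.24 ± 1.52 points, SD, n = 12; exact permutation, adjusted p 0.00228). No match was found among 146 member fragments of HB Low in replicate 1 or 126 of ES Medium in replicate 2, which allows shares of up to 2.05% and 2.38%. By sort the shares were 1.29% against 2.12% at ES and 1.54% against 4.25% at HB of replicate 1, and 1.79% against 3.85% and 1.29% against 3.34% in replicate 2. Of the members 25 held a match, against 6.42% of all positive regions. Among different fragments of regions positive at exactly 1 pair of stages, the GATA share was 1.45% for ES and HB in replicate 1 and 1.51% (ES and HE1) to 6.13% (HE2 and HP) for the 9 other pairs. In replicate 2 it was 1.53% for ES and HB and 1.61% (HE2 and HP, 62 fragments) to 8.39% (HB and HP) for the others, so the order of the other pairs differed between replicates.

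Against the narrower comparator of regions positive at ES only or HB only, chosen after seeing the data, both differences were kept, at 3.03 points for KLF (exact permutation, adjusted p 0.00684) and -1.68 for GATA (0.0103). They also kept their side of the threshold against regions positive later as well and in the central 100 bp of each fragment. In those 100 bp, which hold the length fixed, KLF stood at 2.24 points (2.90 over whole fragments) and GATA at -1.18 (-2.24). Fragments shorter than 100 bp had no value in that setting, so the sets of fragments differ. Libraries of 1 sort, and of the ES and HB sorts of 1 replicate, share fragments, so the 12 are not independent. With at least 2 different fragments required at each stage, in 133 members, KLF was at 2.29 points with an adjusted p of 0.301 and did not pass.

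A further 4 motifs passed over all other fragments but not in each of these settings. PU.1 letters were found in 7.97 ± 1.09% of member fragments and 10.5 ± 1.16% of others (SD, n = 12), lower in 12 of 12 (exact permutation, adjusted p 0.00228). AP-1, the target of FOS and JUN, was in 5.87 ± 2.23% and 8.29 ± 0.788%, lower in 9 of 12 (exact permutation, adjusted p 0.0137). CTCF was in 1.96 ± 1.51% and 3.98 ± 2.66%, lower in 11 of 12, and TBOX in 4.56 ± 1.07% and 3.55 ± 0.278%, higher in 10 of 12 (exact permutation, adjusted p 0.0239 for each). Against ES-only or HB-only regions, PU.1 stood at -0.912 points, AP-1 at -0.901, TBOX at 0.914 and CTCF at 0.663, none past the threshold and the last with its direction turned. In the central 100 bp PU.1 fell to -0.163 points. Of the different member fragments with TBOX letters, 39 of 99 overlapped a KLF match. The CTCF difference was nearly all in replicate 1, at -3.73 points against -0.293 in replicate 2.

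**Figure D5:**
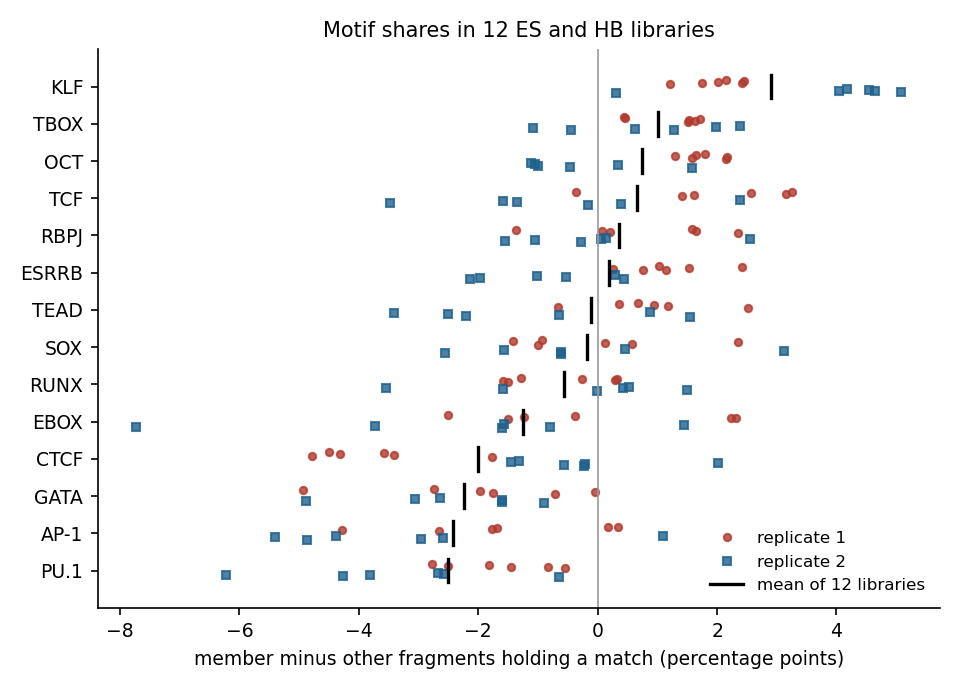
Difference between member and other fragments in the share holding each motif (percentage points), 1 point per ES or HB library; circles are replicate 1, squares replicate 2, black bars the mean of 12. All 12 points lie right of 0 for KLF and left of 0 for GATA and PU.1, while OCT and TCF points are split by replicate.

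The remaining 8 motifs did not pass over all other fragments. OCT letters, those of the pluripotency factor OCT4, differed by 0.74 points (exact permutation, adjusted p 0.153), positive in all 6 libraries of replicate 1 and averaging -0.284 in replicate 2. In the central 100 bp OCT was 1.09 points higher (adjusted p 0.0260) and ESRRB 0.899 (0.0228), both past the threshold in that setting alone. RUNX letters differed by -0.56 points, and by -3.278 (adjusted p 0.0137) with 2 fragments required at each stage, the one setting in which they passed. By region, the share of members with a match and that of all positive regions were 6.61% and 4.72% for OCT, 5.29% and 5.62% for SOX, 6.97% and 6.63% for ESRRB, 6.49% and 4.89% for TCF, and 7.57% and 5.62% for TBOX. They were 10.3% and 13.9% for AP-1, 6.49% and 6.37% for TEAD, 23.6% and 21.5% for EBOX, 6.49% and 8.13% for RUNX, 13.8% and 16.4% for PU.1, 9.62% and 8.31% for RBPJ, and 3.85% and 3.52% for CTCF. Those of SOX, ESRRB, TEAD and CTCF lay nearest the background. Members stood above it for OCT, TCF, TBOX, EBOX and RBPJ and below it for AP-1, RUNX and PU.1. The shares by region were not tested, and regions of different width are not equal targets.

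Other properties of the fragments depended on what members were set against. Median member fragments were 182 ± 16.7 bp and others 201 ± 39.4 bp (mean of library medians, SD, n = 12), a difference of -19.3 bp (exact permutation p = 0.00586), shorter in 10 of 12. They were shorter by more against regions also positive later (-44.42 bp, exact permutation p = 0.00195), while against ES-only or HB-only regions they were 6.21 bp longer (exact permutation p = 0.164, n = 12). GC content was 53.3 ± 2.91% and 53.6 ± 3.48% (-0.243 points, exact permutation p = 0.443, n = 12), but 2.51 points above ES-only or HB-only fragments (p = 0.000488) and -1.735 points from those of regions also positive later (p = 0.00195). By fragment, members thus lay between these classes in GC content. By whole region they did not lie below the regions also positive later, with a median of 53.7% against 52.7%. Distance to a start site did not differ detectably from all other fragments (-639 bp, exact permutation p = 0.579). The difference was -5864 bp against ES-only or HB-only fragments (exact permutation p = 0.000488, n = 12) and 2080 bp against regions also positive later (exact permutation p = 0.0337, n = 12), so members lay between these classes here too. Repeat-masked bases, added after seeing the data, made up 15.2 ± 4.68% and 13.3 ± 5.49% (1.88 points, exact permutation p = 0.0112, n = 12) but differed by -1.638 points from ES-only or HB-only fragments.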

How the data were processed

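The authors, per the labels and their methods, amplified the inserts with 25 to 30 PCR cycles and sequenced read pairs. Trim Galore was used for trimming, Bowtie2 for alignment (mm10), SAMtools and bedtools for filtering and HOMER for annotation. For the reporter libraries, versions are not given in the sources used here. The deposited values are coordinates in base pairs of unique fragments (66 to 599 bp), with no read counts. Which of the described filters (a background library, open chromatin at the stage, distance from promoters) had been applied is not stated. Here, fragments of the 40 libraries (458486 entries) were merged, with 36 on scaffolds left out of sequence and annotation measures, and placed by their centre against 26127 RefSeq genes with curated transcripts on GRCm38.

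Library titles gave stage, gate and replicate. Tests were exact permutations over libraries or sorts (Python 3.11.15, numpy 2.4.6, pandas 2.3.3, pysam 0.24.0, Wilson intervals from scipy 1.17.1), adjusted over the 14 motifs by the Benjamini-Hochberg method, with functions tested on simulated data. Region merging, the least number of fragments, comparators, replicates, gates and fragment identity were varied. The regions named were the 10 with most positive fragments, those positive in all 4 early sorts, up to 4 per gene list and genes nearest to most members. A region that this rule names is not reported here. The members, gene lists, motifs and tests were chosen with earlier results of these data known. The methods describe selected transfected cells being differentiated and sorted into stages, without stating that each replicate was 1 pool. Identical fragments were shared mostly within a replicate, so replicate was used as a block in 1 test and as an alternative in another.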

Additional observations from a re-analysis of the deposited data

Results flagged for a closer look

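Among the 4 High libraries of ES and HB, the share of fragments in members at HB of replicate 2, 2.209%, stood apart from the other three, which lay between 3.37% and 3.61%. It was the single such value in 7 groups examined for a library far from the rest, where chance gives about 1 in 20 groups.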

How the results depend on the processing

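The limits first. Members rest mostly on 1 or 2 fragments from 1 replicate, and no depth beyond the number of fragments is known, so absence later is absence from a list. The number of members fell from 832 to 133 when 2 different fragments were required at each early stage, and was 289 to 667 when the rule was applied to 1 replicate.

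The Negative difference of 1.55 points, which the rule in part fixes, kept its sign in every alternative run. It was 0.3265 (exact permutation p = 0.00952) with 2 fragments required at each stage. With replicate as a block it was the same 1.547 points (exact permutation p = 0.01), so the pairing changed no call. It missed the threshold without 1 replicate (1.454 to 1.641, where the smallest p is 0.1) and at 0.5465 without members holding a fragment both Negative and positive. In that last setting replicate 2 had no early excess, with 0.0355% at ES and 0.0327% at HB against 0% to 0.174% later. The difference measured in the replicate not used for choosing turned to -0.004778 points with new fragments only, spanned -0.00703 to 0.0921 without 1 replicate, and had p = 0.714 by exact permutation without the replicate block. High minus Low turned to 0.132 with Medium in place of Low and 0.1832 for fragments of 1 gate, and spanned -0.8878 to 0.818 without 1 replicate.

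GC content moved to -1.735 points against regions also positive later, to 2.515 against ES-only or HB-only regions and to 0.01057 over sorts, and spanned -0.8646 to 0.3779 without 1 replicate. Fragment length moved to 6.208 bp against ES-only or HB-only regions, -44.42 against regions also positive later, -16.75 over sorts and -23.88 with 2 fragments required, and spanned -31.08 to -7.417 without 1 replicate. Distance moved to 2080 bp against regions also positive later, -5864 against ES-only or HB-only regions and -4908 with 2 fragments required, and spanned -1471 to 192.6 without 1 replicate. Repeat-masked bases moved to -1.638 points against ES-only or HB-only regions and 3.312 against regions also positive later, 4.806 with 2 fragments required and 1.744 over sorts, and spanned 0.7674 to 2.986 without 1 replicate.

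Of the 14 motifs, 6 passed the threshold, against 2 with ES-only or HB-only regions as comparator (KLF and GATA), 3 with 2 fragments required (GATA, PU.1 and RUNX, the last not among the 6), 0 over the 4 sorts and 0 to 0 without 1 replicate. With 4 pairs no motif can pass after adjustment over 14, and with 6 the lowest adjusted p was 0.0625. There, 0 motifs over sorts, 3 without replicate 1 and 7 without replicate 2 had an unadjusted exact permutation p under 0.05. Motifs that were not called changed sign. Without replicate 1 and without replicate 2 the differences were -0.2844 and 1.773 for OCT, -0.8216 and 1.191 for ESRRB, -0.6346 and 1.942 for TCF, -0.026 and 0.7477 for RBPJ, and -1.059 and 0.8361 for TEAD. Over sorts SOX was 0.2001 and TEAD 0.1539. With 2 fragments required SOX was 1.122, TEAD 0.895 and ESRRB -0.4601. In the central 100 bp SOX was 0.6862, TEAD 0.5371, EBOX 0.1095 and RBPJ -0.07216, and against regions also positive later RBPJ was -0.341. Against ES-only or HB-only regions EBOX was 1.228 and CTCF, which had been called, 0.6634. Gene lists counted by any start site within 25000 bp held 0 members for mesoderm (0.233% of all positive regions), 3 for blood (0.361% against 0.239%), 1 for neural (0.12% against 0.0999%), 6 for pluripotency (0.721% against 0.214%), 4 for early signalling (0.481% against 0.173%) and 2 for endothelial genes (0.24% against 0.205%). The cause of these changes was not tested.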
